A study of Mus musculus with 302 samples.

Results

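Abhd1 and Rbks, a pair of genes on mouse chromosome 5, were followed across 302 livers. They are 2 of the 10838 genes named on the array, and they were chosen because earlier results on these data had shown each of them in separate states and the pair running in opposite directions. Each is measured by 1 probe, so agreement between probes of 1 gene could not be examined. The study set out to map the genetics of gene expression. Its mice were F2 animals of an intercross of C57BL/6J with C3H/HeJ, both inbred strains, bred in both directions. For their first 8 weeks all were on chow (4% fat), followed by 12 weeks on a Western diet (42% fat, 0.15% cholesterol), and the liver was taken at the age of 20 weeks after a fast of 12 hours. Every liver therefore shares the diet, and no chow-fed or parental liver entered. The sources used here give no genotype, sex or direction of the cross for a mouse, so there is 1 group and no comparison of groups. Each 2-colour array set the RNA of 1 mouse against a pool made of equal shares of all the samples. Values are given as log10 of liver over pool, a base and a direction that are likely but not stated, so that 0 is the level of the pool.

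Rbks encodes ribokinase, which phosphorylates ribose and so brings the free sugar into the pentose phosphate pathway and the supply of nucleotides. Abhd1 belongs to the alpha/beta hydrolase fold family, a large group that holds many lipases and esterases. The mouse gene table of the C57BL/6J assembly GRCm38.p6 lists Rbks as protein-coding and Abhd1 as a transcribed pseudogene. By gene order there, 16 measured genes lie between them. An F2 mouse can carry 0, 1 or 2 copies of a strain's allele at an autosomal locus, and in such crosses genes under strong local control are known to fall into separate levels.

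The start of Rbks lies close to that of Babam2, a subunit of the BRCA1-A and BRISC deubiquitinase complexes, on the opposite strand. The RefSeq promoter windows of the pair, from 250 bases before to 50 bases after each start in GRCm38.p6, share 61 bases. The Rbks window is chr5:31697561-31697860 on the minus strand and the Babam2 window chr5:31697800-31698099 on the plus strand. They are shown because Babam2 was the only gene called with Rbks among its 20 nearest measured neighbours, as given beside its values. Capitals mark the GC box letters GGGCGG.

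Rbks: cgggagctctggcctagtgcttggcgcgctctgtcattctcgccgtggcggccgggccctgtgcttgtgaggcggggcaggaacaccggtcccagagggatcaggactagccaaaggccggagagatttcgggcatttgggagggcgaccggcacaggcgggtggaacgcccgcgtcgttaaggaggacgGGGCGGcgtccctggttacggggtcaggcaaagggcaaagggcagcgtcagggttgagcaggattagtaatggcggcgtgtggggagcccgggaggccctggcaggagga

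Babam2: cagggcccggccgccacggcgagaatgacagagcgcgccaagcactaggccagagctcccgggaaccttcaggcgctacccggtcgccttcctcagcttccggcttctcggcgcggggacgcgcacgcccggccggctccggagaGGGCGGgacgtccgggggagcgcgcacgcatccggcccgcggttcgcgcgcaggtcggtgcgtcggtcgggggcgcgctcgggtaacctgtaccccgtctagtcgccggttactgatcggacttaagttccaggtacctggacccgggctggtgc

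Each window holds 1 match to GGGCGG, read on both strands, which 35.7% of 32851 RefSeq mouse promoter windows of this length also hold. Neither has TATAAA (13.6% of all windows) or CCAAT (37.4%). None of these motifs contains another. The Rbks window has 26 CG dinucleotides, more than 83.1% of all windows, and the Babam2 window has 44, more than 97.8%, against a median of 7. A match is a description of these letters only.

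Abhd1 ran from -0.805 in the lowest liver through a median of 0.00215 to 0.376 in the highest, a 15.2-fold range. Rbks ran from -0.558 through 0.0241 to 0.380, an 8.67-fold range. The SD over livers was 0.295 for Abhd1 and 0.252 for Rbks, which is 4.46 and 3.81 times the median SD of all probes (0.0661). Neither gene had a missing value or a value at the limits of -2 and 2 where the deposited numbers end. In bulk liver, fewer cells of a type and less RNA per cell cannot be told apart.

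The values of each gene gathered around 3 levels. A mixture of 3 Gaussian components of equal variance put 65 livers in the low state of Abhd1, 153 in the middle and 84 in the high one, with means of -0.594, -0.00751 and 0.205 and an SD of 0.0662 within states. The low state stood 3.86-fold under the middle and the middle 1.63-fold under the high. Rbks had 77 livers low, 157 middle and 68 high, with means of -0.442, 0.0278 and 0.235, an SD of 0.0517, and steps of 2.95-fold and 1.61-fold. The Bayesian information criterion was lower by 49.8 for Abhd1 and by 114.5 for Rbks with 3 components than with 2. These counts describe the property the genes were chosen for, and no test was made on them.

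The low state was set off by an empty stretch and the upper states were not. No Abhd1 value lay between -0.362, the highest of its low state, and -0.167, the lowest of its middle state. For Rbks the empty stretch ran from -0.238 to -0.101. The middle and high states of Abhd1 met at 0.116, and a liver near that value could belong to either. The low state held 21.5% of livers for Abhd1 (exact 95% binomial interval 17.0 to 26.6%) and 25.5% for Rbks (20.7 to 30.8%), and the middle state 50.7% (44.9 to 56.4%) and 52.0% (46.2 to 57.7%). The intervals cover counting error only.

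The steps were uneven on the log scale. They were nearly even on the linear scale as liver over pool, and uneven with the ratio turned, so the spacing rests on a direction that is likely but not stated. On the log10 scale the lower step was 2.76 times the upper for Abhd1 and 2.27 times for Rbks. As linear ratios to the pool the 3 means of Abhd1 were 0.260, 1.0 and 1.65, so that the steps were 0.740 and 0.651. Those of Rbks were 0.365, 1.08 and 1.75, with steps of 0.714 and 0.670. Refitting on the linear scale left the low states at 65 and 77 livers and moved the high states to 77 for Abhd1 and 63 for Rbks. Turned to pool over liver, the mean ratios in the low, middle and high states of Abhd1 were 4.01, 1.03 and 0.623, with steps of 2.98 and 0.408. Those of Rbks were 2.79, 0.946 and 0.586, with steps of 1.85 and 0.360. Refitting on the turned ratios did not separate the middle from the high state of either gene.

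**Figure D1:**
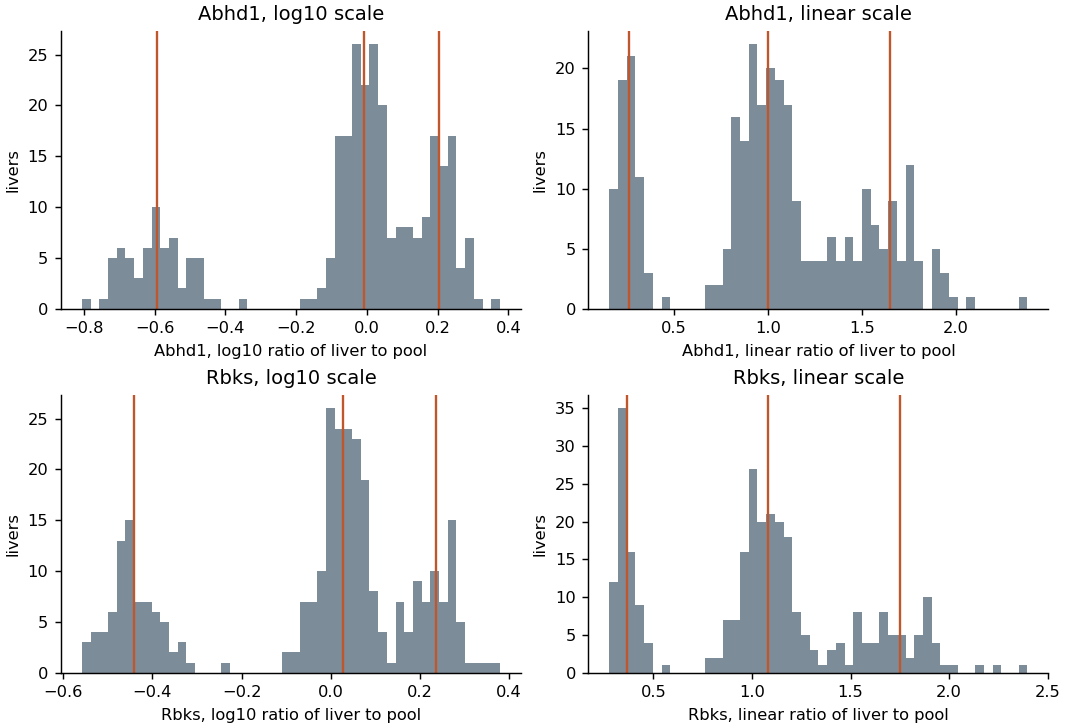
Histograms of Abhd1 (top) and Rbks (bottom) in the 302 livers, as the log10 ratio of liver to pool (left) and as the linear ratio (right), with livers per bin on the vertical axis and lines at the means of 3 fitted states. The low state is separate on both scales, and the 3 means of Abhd1 at 0.260, 1.0 and 1.65 are nearly evenly spaced on the linear one. With the ratio turned to pool over liver the steps are uneven (2.98 and 0.408).

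The states of the pair were mirror images. All 65 livers with low Abhd1 were among the 68 with high Rbks. Of the 153 livers with middle Abhd1, 148 had middle Rbks, and of the 84 with high Abhd1, 73 had low Rbks. In all, 286 of 302 livers (94.7%) were in opposite states. In the livers with low Abhd1, Rbks lay between 0.147 and 0.380 with a median of 0.234. In those with high Abhd1 its median was -0.441, with a range from -0.558 to 0.224. The ranges overlap, and the livers with both genes high are named beside the other exceptions.

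The correlation of the pair was r = -0.769 (Spearman's rho -0.808) after centring in 4 blocks of livers. The blocks come from the level of the Y-linked gene Eif2s3y, below or above -0.8, and from the mouse number, up to 212 or above. The nearest Eif2s3y values on each side were -0.968 and -0.437, and the blocks hold 77, 65, 82 and 78 livers. Within single blocks r was -0.690, -0.809, -0.777 and -0.792, so every block had the same sign. As linear ratios r was -0.888. The sum of both linear ratios had a mean of 2.05 and an SD of 0.238, less than the SD of either gene alone (0.498 and 0.490). Both values hold for liver over pool only. With the ratios turned r was -0.525, and the sum had a mean of 2.89 and an SD of 1.17, between the SDs of Rbks (0.889) and Abhd1 (1.35). The opposition is the reason for choosing the pair, and it is given as a description without a test.

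Within states the pair was at most weakly correlated. Among livers with low Abhd1 the 2 genes correlated at r = 0.229 (rho 0.230). Among those in the middle state r was -0.294 (rho -0.0742) and among those in the high state -0.302 (rho -0.201). Grouped by Rbks instead, r was 0.0402, 0.157 and 0.0219 in the low, middle and high states, and rho 0.0314, 0.102 and 0.189.

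**Figure D2:**
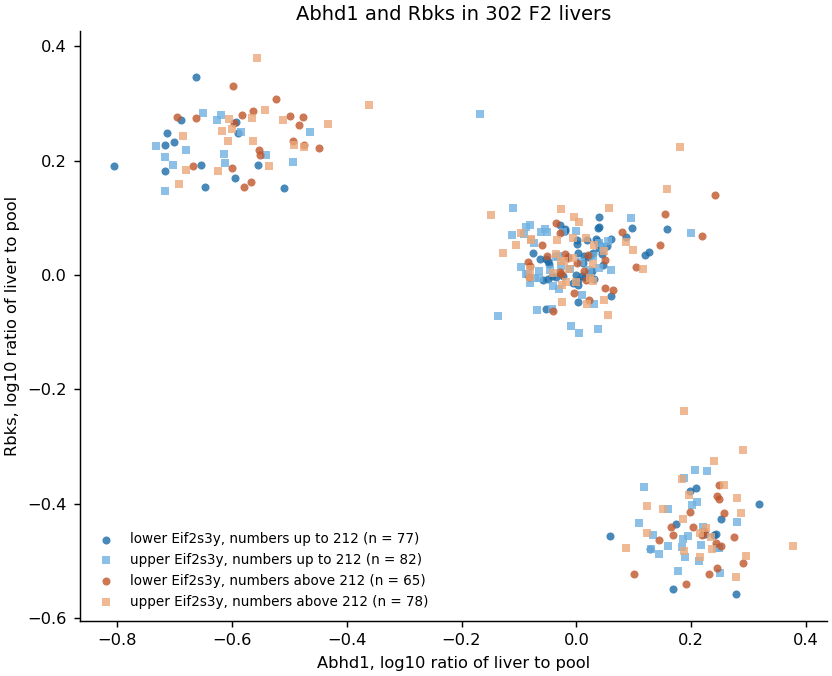
Rbks (vertical) against Abhd1 (horizontal), both as log10 ratio of liver to pool, with 1 point per liver and colour and shape for the 4 blocks. The points form 3 clouds along a falling diagonal, each holding livers of every block, with 16 livers off the opposite states.

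In 16 livers the pair was off the opposite states. In 9 of them Abhd1 was high and Rbks middle, in 4 Abhd1 was middle and Rbks low, and in 1 Abhd1 was middle and Rbks high. In the remaining 2, mice 241 and 345, both genes were high. Mouse 241 had 0.158 for Abhd1 and 0.151 for Rbks, and mouse 345 had 0.180 and 0.224. Mouse 86 had an Abhd1 value of -0.167, the lowest of its middle state, together with a high Rbks of 0.283. Poln, the gene that followed Abhd1 most closely, was in the state opposite to Rbks in 10 of the 16 livers, in the state of Abhd1 in 5 and in neither in 1. Over all livers, Poln was middle in 45 of the 84 with high Abhd1 and in 40 of the 77 with low Rbks. A middle Poln therefore does not tell which of the 2 genes it follows, and the 16 livers do not decide it. In mouse 345 Poln was at -0.314, low as in other livers with high Rbks, although Abhd1 was high there.

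Poln, a DNA polymerase of the A family with a part in DNA repair, had the largest correlation with Abhd1 in size of all 23511 other probes. It ran from -0.494 through a median of -0.0215 to 0.441. Its median was -0.334 in livers with low Abhd1 (range -0.494 to -0.213), -0.0136 in the middle state and 0.133 in the high state, where it ran from -0.314 to 0.441. High and low states overlap through mouse 345, and the medians are 2.93-fold apart. The within-block r was 0.829 with Abhd1 (0.823 to 0.853 over the blocks) and -0.698 with Rbks. As linear ratios the r of Poln was 0.720 with Abhd1 and -0.720 with Rbks, so neither was larger on that scale. Its slope on Abhd1 was 0.542 ± 0.0212 (SE, limma, Benjamini-Hochberg adjusted p = 2.49e-73) and on Rbks -0.538 ± 0.0319 (limma, adjusted p = 1.31e-41). All 65 livers with low Abhd1 were among the 72 in the low state of Poln.

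Galnt11, which starts O-linked glycan chains on proteins, was next among the genes apart from Rbks. Its median was -0.116 in livers with low Abhd1, 0.0229 in the middle and 0.114 in the high state, with overlapping ranges of -0.323 to 0.030 and -0.0616 to 0.274 at the ends. The within-block r was 0.712 with Abhd1 and -0.664 with Rbks (0.677 and -0.689 as linear ratios). The slope on Abhd1 was 0.249 ± 0.0142 (SE, limma, adjusted p = 5.88e-44). Poln and Galnt11 lie on opposite sides of the pair, at places 124 and 61 of the 654 measured chromosome 5 genes, with Abhd1 at place 90 and Rbks at 107.

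Corin, the protease that activates the precursor of atrial natriuretic peptide, was the third, with r = 0.555 with Abhd1 and -0.515 with Rbks. As linear ratios r was 0.479 with Abhd1 and -0.581 with Rbks, larger in size with Rbks. Corin has clusters of its own, with 72 of 302 livers (23.8%) in a low cluster 10.1-fold under the rest. Low Corin was found in 44 of the 65 livers with low Abhd1 (67.7%), in 22 of the 153 in the middle state (14.4%) and in 6 of the 84 in the high state (7.14%). It lies at place 212, farther from the pair than Poln and Galnt11, and its slope on Abhd1 was 0.874 ± 0.0757 (SE, limma, adjusted p = 3.88e-22).

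**Figure D3:**
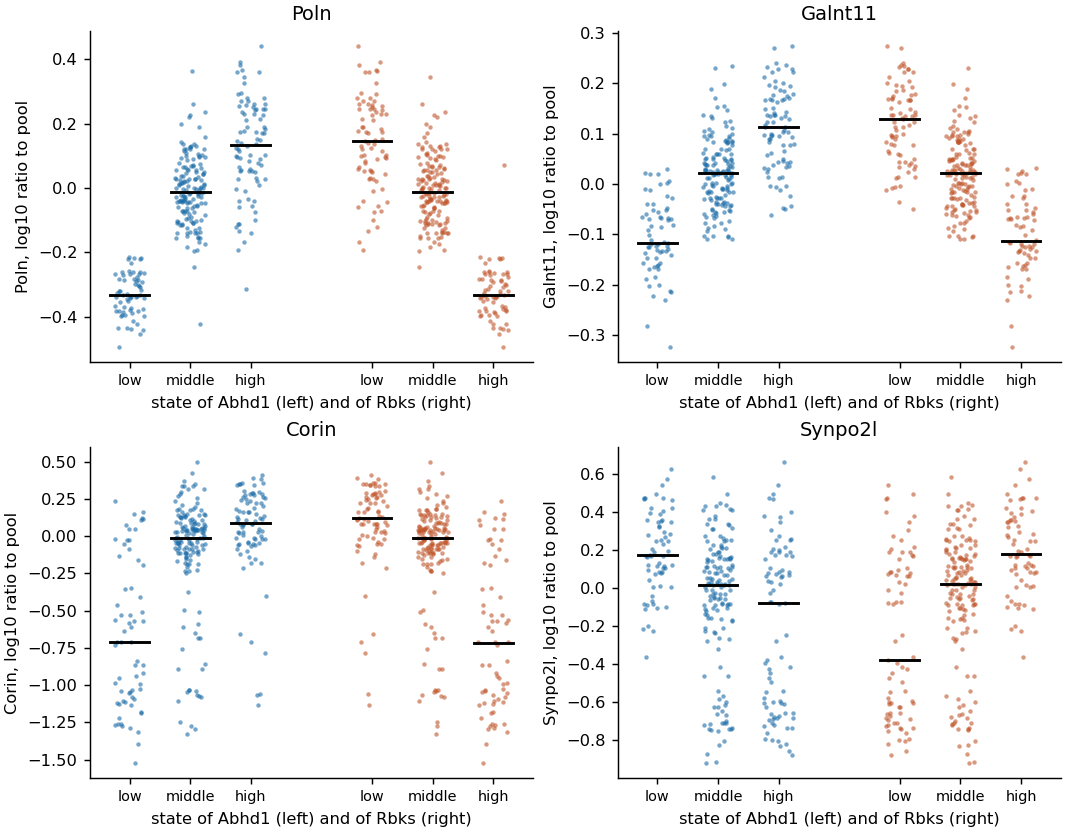
Log10 ratio to the pool of Poln, Galnt11, Corin and Synpo2l in the low, middle and high states of Abhd1 (left) and of Rbks (right), with 1 point per liver and a line at the median. Poln is at or below -0.213 in every liver with low Abhd1, and the order of states is reversed between Abhd1 and Rbks.

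The fit of every probe on Abhd1, with the blocks as covariates, called 81 of 23511 probes (0.345%) at an adjusted p under 0.05, 49 with a positive and 32 with a negative slope. On chromosome 5 it called 36 of 811 probes (4.44%), of which 1 is Rbks itself. On other chromosomes it called 6 of 11807 (0.0508%), and among probes with no matched gene 39 of 10893 (0.358%). The fit on Rbks called 213 of 23511 (0.906%), 77 positive and 136 negative, with 42 of 811 on chromosome 5 (5.18%, Abhd1 among them), 84 of 11807 elsewhere (0.711%) and 87 of 10893 unmatched (0.799%). Without the 2 livers farthest from the Rbks median, mice 180 and 169, the fit on Rbks called 111 probes, 35 on chromosome 5 and 21 on other chromosomes, so that its count on other chromosomes was 84 with these livers and 21 without. It called 39 in the livers numbered above 212 alone and 2970 with ranks. Because the pair is correlated, the 2 fits are not separate evidence for a gene called in both. Slopes and adjusted p-values measure the spread among these livers.

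More genes of chromosome 5 ran with Abhd1 or against it. Atp10d, a phospholipid-transporting ATPase, had r = 0.481 with Abhd1 and -0.474 with Rbks. The centrosome protein gene Cep135 had 0.480 and -0.470. Cox18, which helps to assemble cytochrome oxidase, had 0.436 and -0.377, and the endoplasmic reticulum membrane protein gene Wfs1 had 0.415 and -0.364. The secreted guidance factor Sema3e had 0.407 and -0.360, and the diacylglycerol kinase Dgkq 0.363 and -0.347.

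Others had the signs of Rbks. Mxd4, a partner of Max that represses transcription, had r = -0.407 with Abhd1 and 0.426 with Rbks. Evc2, a protein of the ciliary base in hedgehog signalling, had -0.385 and 0.454. The ubiquitin hydrolase gene Uchl1 had -0.355 and 0.361, and the lipid droplet enzyme gene Hsd17b13 -0.309 and 0.365. All of these passed in both fits (limma, largest adjusted p = 3.27e-05, for Hsd17b13 with Abhd1). In the livers numbered above 212 alone Hsd17b13 lost the call with Abhd1 (limma, adjusted p = 0.0816), and Cox18 and Dgkq lost it with Rbks (limma, adjusted p = 0.112 and 0.0802). A probe with no matched gene had larger values than any of them, -0.667 with Abhd1 and 0.756 with Rbks.

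None of the 16 measured genes between Abhd1 and Rbks was called in either fit. Among all 652 measured genes of the chromosome apart from the pair, 35 were called with Abhd1 (5.37%) and 41 with Rbks (6.29%). At such shares 0 of 16 is not unusual. The r of the 16 lay between -0.113 and 0.138 with Abhd1 and between -0.132 and 0.119 with Rbks. Its median size was 0.0571 with Abhd1 and 0.0480 with Rbks, against 0.0566 and 0.0683 over the chromosome. Preb, an activator of the prolactin gene and a factor in vesicle export whose gene overlaps Abhd1 in the table, had r = 0.0368 with Abhd1 and 0.00115 with Rbks. Its medians were 0.0214, 0.00236 and 0.00181 in the low, middle and high states of Abhd1. At an unadjusted p under 0.05, 2 of the 16 passed with each gene (limma), against 1982 of all 23511 probes with Abhd1 and 3298 with Rbks. The within-block SD of the 16 had a median of 0.0507 and a highest value of 0.0777, against a median of 0.0648 over the chromosome. The part of this spread in the lack of calls was not tested.

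Of the 20 genes nearest to Abhd1, 10 on each side, none was called in either fit, where 5.37% and 6.29% of the chromosome's genes were. At an unadjusted p under 0.05 there were 3 with Abhd1 and 1 with Rbks (limma), against 1982 and 3298 of all 23511 probes. Khk, ketohexokinase of fructose metabolism and a relative of ribokinase in the PfkB sugar kinase family, came nearest with r = -0.207 with Abhd1 (limma, adjusted p = 0.0735) and 0.190 with Rbks (limma, adjusted p = 0.0686). Its medians in the low, middle and high states of Abhd1 were -0.0231, -0.0396 and -0.0314, which differ by less than its SD within any of them (0.0913 to 0.0988). Of the 20 nearest to Rbks 1 was called, Babam2. Its r was 0.377 with Rbks and -0.270 with Abhd1, and its median rose from -0.00566 in livers with low Rbks through 0.00724 to 0.0291 in those with high Rbks. The step from low to high is 1.08-fold, small beside the 4.76-fold step of Rbks, and its slope of 0.0525 ± 0.00755 passed (SE, limma, adjusted p = 2.43e-08).

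**Figure D4:**
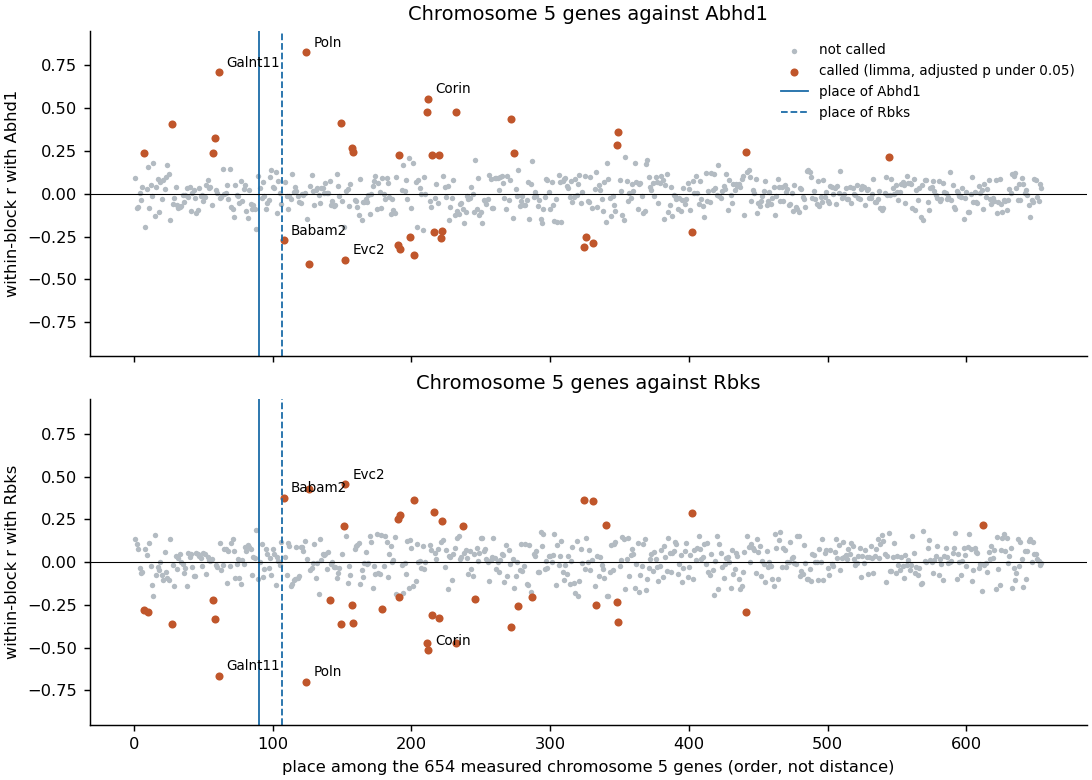
Within-block correlation with Abhd1 (top) and Rbks (bottom) of each measured chromosome 5 gene, by its place in gene order rather than distance, with called genes in orange and lines at the places of the pair. Poln at 0.829 and Galnt11 at 0.712 stand on opposite sides of Abhd1. None of the 16 genes between the lines is called, where 5.37% (Abhd1) and 6.29% (Rbks) of the chromosome's genes are.

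Called genes spread over a long stretch. By distance from Abhd1 in gene order, 1 of 49 genes was called with it within 25 places (2.04%), 5 of 50 from 26 to 50 places, 7 of 89 from 51 to 100 (7.87%) and 12 of 50 from 101 to 150 (24.0%). Farther out it was 2 of 50 from 151 to 200 (4.00%), 5 of 100 from 201 to 300 and 3 of 264 from 301 to 600 (1.14%). The highest share was thus not the nearest. The median within-block SD of the genes was 0.0519 within 25 places and 0.0729 from 101 to 150, so the sets differ in spread.

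Few named genes outside chromosome 5 passed with Abhd1. Synpo2l, an actin-associated gene of muscle, placed on chromosome 14 in the gene table by its probe's annotation, had r = -0.343 with Abhd1 and 0.398 with Rbks (limma, adjusted p = 8.42e-07 and 8.48e-10). The probe's target was not checked against sequence, so its place is that of the annotation only. A mixture of 3 components put 70, 162 and 70 livers in its low, middle and high parts. The Bayesian information criterion was lower by only 1.21 than with 2 components, which held 71 and 231 livers. By the 3-component fit Synpo2l was low in 1 of the 65 livers with low Abhd1 (1.54%). It was low in 30 of 153 in the middle (19.6%) and 39 of 84 in the high state (46.4%). The rest were Gpat4, an enzyme of triglyceride synthesis on chromosome 8 (r = 0.265 with Abhd1), and Foxf1, Fbxw16, Rgs3 and Ceacam16, with r of -0.219, -0.220, 0.216 and -0.218. Rgs3 was named after its value was seen. Foxf1, Fbxw16, Rgs3 and Ceacam16 lost the call with no block at all (limma, adjusted p from 0.0603 to 0.0887), and in the livers numbered above 212 alone all 6 lost it, Synpo2l with an adjusted p of 0.0635 (limma). Ceacam16 passed with Rbks too (r = 0.279), where Mmp27, Cdh1 and Siglecf followed with r of -0.263, -0.258 and -0.246.

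When both genes entered 1 fit, Poln kept a slope on Abhd1 of 0.467 ± 0.0327 (SE, limma, adjusted p = 1.50e-31) and one on Rbks of -0.115 ± 0.0385 (SE, limma, adjusted p = 0.0338). For Galnt11 the slopes were 0.172 ± 0.0216 on Abhd1 and -0.118 ± 0.0254 on Rbks (SE, limma, adjusted p = 2.19e-10 and 0.000601). Babam2 had 0.00569 ± 0.010 on Abhd1, which did not pass, and 0.0577 ± 0.0118 on Rbks (SE, limma, adjusted p = 0.000360). Evc2 likewise passed only on Rbks (0.108 ± 0.0226, SE, limma, adjusted p = 0.000436). The difference between the slopes of Babam2 and Evc2 on Abhd1 and on Rbks was not tested. These slopes hold for the log scale, where the uneven steps of the pair run in opposite order over the livers. How single genes split between the pair was not examined on the linear scale, where Poln had r of 0.720 with Abhd1 and -0.720 with Rbks. The joint fit called 1876 probes on Abhd1 given Rbks (7.98%) and 2759 on Rbks given Abhd1 (11.7%). On chromosome 5 the shares (9.14% and 13.2%) were close to those on other chromosomes (8.32% and 13.0%).

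No gene of the pathways of the pair was called in the fits with blocks alone. Of all probes 0.345% were called with Abhd1 and 0.906% with Rbks, so 0 is near the share for lists this short. Of 12 measured genes of the pentose phosphate pathway and phosphoribosyl supply 0 were called with Rbks and 0 with Abhd1 by limma, where an unadjusted p under 0.05 gave 2 (Pgm2 and Tktl1) and 1 (Taldo1). Of 3 measured kinases related to ribokinase (Adk, Khk and Pdxk) 0 were called, and Khk alone had an unadjusted p under 0.05. The slopes on Rbks were 0.0285 for Tkt, 0.0215 for Taldo1 and -0.0233 for Rpia, and the list had a median of 0.0133 against 0.00262 over all probes. Of 11 measured relatives of Abhd1 in the hydrolase fold family and 7 genes of fructose and glucose phosphorylation 0 passed in either fit (limma). At an unadjusted p under 0.05, 4 of the relatives (Abhd14a, Abhd16a, Abhd8 and Mgll) and 2 of the sugar genes (Khk and Slc2a5) passed with Rbks, and 0 and 1 with Abhd1, while 1982 of all probes passed with Abhd1 and 3298 with Rbks.

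Markers of the cell types that a liver sample can hold were read in the same fits. In those with blocks alone 0 of 7 hepatocyte, 9 macrophage, 6 stellate cell and matrix, 8 endothelial, 5 red cell, 8 lymphocyte, 4 pancreas and 4 fat cell genes were called with Abhd1 or with Rbks (limma). With 0.345% of all probes called with Abhd1 and 0.906% with Rbks, 0 is near the share for such short lists. At an unadjusted p under 0.05, 6 of the 9 macrophage genes passed with Rbks, all with a negative slope, and 1 with Abhd1, while 3 of the 6 stellate cell and matrix genes did with Rbks and 0 with Abhd1. Of all 23511 probes 3298 passed with Rbks at that threshold and 1982 with Abhd1. Of 3 bile duct genes, Cftr passed with Rbks (slope -0.104, limma, adjusted p = 0.0350), and none passed with Abhd1.

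A last fit kept the 3 states of a gene as covariates, so that only the spread inside states was left, and it was added after the data had been seen. With Abhd1 it called 1609 probes (6.84%), and with Rbks 11721 (49.9%), 7509 positive (31.9%) and 4212 negative (17.9%). Inside its states Rbks correlated at r = -0.428 with the first principal component of all probes and Abhd1 at -0.0548. Of the 9 macrophage genes 8 fell as Rbks rose within states, among them the surface marker Adgre1 (slope -1.33 ± 0.174, SE) and the complement genes C1qc (-1.24), C1qa (-0.903) and C1qb (-0.599). So did 5 of the 6 stellate cell and matrix genes, with Col1a1 at -2.85 and Col1a2 at -1.77 by 1 of its 2 probes. Of the 7 hepatocyte genes 4 rose, Ass1 (0.880), Apob (0.692), Apoa1 (0.396) and Serpina1a (0.227), and the other 3 did not pass. The bile duct genes Cftr (-0.477) and Epcam (-0.403) fell, 2 of 3 measured, as did 3 of 5 red cell genes, Hbb-b1 (-0.694), Hbb-b2 (-0.679) and Epb42 (-0.858). All 4 fat cell genes passed, Fabp4 (-1.33) falling and Lep (0.581), Plin1 (0.230) and Retn (0.140) rising. Of 8 endothelial genes 2 rose and 3 fell, of 8 lymphocyte genes 2 rose and 2 fell, and of 4 pancreas genes 2 rose. With the principal component as a covariate 8556 probes were called (36.4%). Of the 9 macrophage genes 1, Adgre1 (-0.708), still passed, as did 5 of the 6 stellate cell and matrix genes. Ass1, Apob and Plin1 also kept the call. It was lost by Apoa1, Serpina1a, Cftr, Epcam, Hbb-b1, Hbb-b2, Epb42, Fabp4, Lep, Retn and the pancreas genes Cela2a and Cel. The hepatocyte gene Cyp3a11 passed only in that fit, with a negative slope (-0.804).

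Stellate cell and matrix genes also fell inside the states of Abhd1, 4 of the 6: Col1a1 (-0.950), Col1a2 (-0.556, 1 of its 2 probes), Lrat (-0.320) and Dcn (-0.228). The same 4 passed with the principal component, where 10.6% of all probes did. Of the other marker lists, 1 macrophage gene, Cd68 (-0.128), and 1 endothelial gene, Stab2 (-0.343), passed inside these states, and no hepatocyte, bile duct, red cell, lymphocyte, pancreas or fat cell gene did. The part of the markers in the spread of either gene inside states was not tested.

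Inside the states of Rbks, Poln had a positive slope of 0.326 ± 0.115 (SE, limma, adjusted p = 0.0124), opposite in sign to its slope over all livers, and did not pass with the principal component (0.230, limma, adjusted p = 0.147). It had 0.221 ± 0.10 inside those of Abhd1, which did not pass (SE, limma, adjusted p = 0.160). Babam2 kept its sign within states of Rbks, with a slope of 0.162 ± 0.0366 (SE, limma, adjusted p = 7.34e-05). In that fit 31.9% of all probes passed with a positive slope, so the call does not set Babam2 apart. Its slope with the principal component is not given. Pathway genes passed inside the states of Rbks too, where 49.9% of all probes did. Tktl1, Upp2 (by a single probe), Adk and Pklr rose with Rbks, and Upp1, Prpsap2, Taldo1, Pgm2 and Rpia fell. Upp1, Taldo1, Rpia and that Upp2 probe lost the call with the principal component. Inside the states of Abhd1, where 6.84% of all probes passed, Pnp did.

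No array-wide measure passed with the pair by Pearson's r over all livers, and none was tested inside states. Against the array median, the SD over probes, the share of missing values and the mouse number, the 8 correlations lay between -0.0854 and 0.0999 in r, and none passed after adjustment over the 8 (permutation test, two-sided, smallest adjusted p = 0.377). By ranks 1 of 8 passed, Rbks against the array median (rho = 0.167, permutation test, adjusted p = 0.0314, r = 0.0999, and 0.0717 without the 2 livers farthest from the median of that measure). The medians of single arrays lay between -0.0117 and 0.0174, and their SDs between 0.0696 and 0.258. Of 45451 pairs of arrays 879 correlated under -0.3, the lowest at -0.508. All arrays carry the liver in Cy3 and the pool in Cy5, so the direction was kept. Low Abhd1 was found in 18.2, 29.2, 17.1 and 23.1% of the livers of the 4 blocks and low Rbks in 15.6, 29.2, 29.3 and 28.2%, in the order lower Eif2s3y up to and above 212, then upper Eif2s3y up to and above 212.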

How the data were processed

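The authors deposited 1 table of log ratios, read here as log10 of liver over pool, with 23562 probes and 302 livers; how spots were read, corrected and normalized is not given in the sources used here, so signal over background is unknown. Its values end at -2 and 2. Over the 400 widest probes the mean linear ratio had a median of 1.09 and the mean inverse ratio one of 1.67, near 1 only in the direction used. RNA was purified on columns with DNAse, amplified and labelled, per the labels' protocols. Probes were named through the platform annotation and the GRCm38.p6 gene table (12652 probes with 1 matched gene); 9859 were not listed, and 48 with several symbols were unnamed. The array's build is unknown, so the table gave names, biotypes, chromosomes and gene order, and no probe was placed by coordinates. Of the probes, 23512 with values in at least 90% of livers were fitted with limma 3.58.1 in R 4.3.3, each on the level of 1 member with the 4 blocks as covariates, Benjamini-Hochberg adjusted at 0.05 over all probes. A member's own probe is left out of the counts. Mixtures of Gaussian components and binomial intervals came from Python 3.11.15; array measures used 100000 permutations. The fits were tested on simulated data. Eif2s3y served only as a block, with no sex assigned.

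Members and lists were chosen with earlier results of these data known. Named genes are both members, the 10 nearest measured genes on each side of each, the 12 with the largest within-block correlation and the 5 largest on other chromosomes for each, and called list members. Alternatives changed the blocks, scale, ranks, principal component, share of values, number range and farthest livers.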

Additional observations from a re-analysis of the deposited data

How the results depend on the processing

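Most alternatives left the count of probes called with Abhd1 within 1.5 times of 81; the livers numbered above 212 alone gave 32. With Rbks, against 213, the count was 127 with the first principal component as a covariate, 39 in the livers above 212 alone, 2970 with ranks, 111 without the 2 farthest livers and 610 with linear ratios, an alternative chosen after seeing the data. The joint fit, against 1876 and 2759, called 7726 on Abhd1 and 9549 on Rbks with ranks, 8667 and 9319 with linear ratios, and 1826 on Rbks with the principal component, all added later. Inside states of Abhd1 the principal component gave 2502 in place of 1609. The causes were not tested. In the alternatives to the fits on 1 gene with blocks no called slope of a named gene changed sign. The joint fit and the fits inside states, results of their own, did change signs. Inside states the slope turned for 7 called named genes with Abhd1 and 6 with Rbks, of which 1 passed, Poln with Rbks (0.326 in place of -0.538), and given Rbks it turned for Babam2 on Abhd1 (0.00569, not passed, in place of -0.0320). Of 19 called with each gene, 7 lost the call with Abhd1 (Babam2, Ceacam16, Fbxw16, Foxf1, Gpat4, Hsd17b13 and Synpo2l) and 6 with Rbks (Cdh1, Ceacam16, Cox18, Dgkq, Mmp27 and Siglecf) in the livers numbered above 212 alone. The correlation of the pair lay at -0.690 in livers of lower Eif2s3y numbered up to 212, -0.888 with linear ratios and -0.525 with these turned to pool over liver. With linear ratios the smaller of 2 Rbks clusters held 34.8% of livers, where 2 components fitted no better than 1. By ranks 1 of 8 array measures passed, and by Pearson's r 0. Other probes of a gene could not be tried, since each has 1. No paired analysis was possible because there is 1 group of livers. The number of arrays limits the precision.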
